A study of Mus musculus with 12 samples.

Results

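The livers of HDCA-treated Abcb4 knockout mice were set against the livers of HDCA-treated bile duct ligated mice across all genes. HDCA is hyodeoxycholic acid, a bile acid that both groups received at 100 mg/kg. The ligated mice had a 7-day ligation and took HDCA for 4 days, from 3 days after surgery. The Abcb4-/- mice, which the labels place at 60 days of age, took HDCA for 21 days. These 2 groups hold 3 libraries each, 6 of the 12 in the series, and the other 6 are the same models without HDCA. Every library is polyadenylated RNA of whole liver. The members were chosen by the group names in the sample titles alone, and the table holds 16970 genes. Of these, 10805 reached 1 FPKM (fragments scaled to transcript length and library depth) in at least 3 of the 12 libraries and were tested, and 6165 were not. Of the genes not tested, 444 were at 0 in all 6 HDCA libraries. A further 1300 of those 6165 had all 3 knockout libraries above all 3 ligation libraries and stayed outside every count given here. Among tested genes the share with that order was 32.4%. The reverse order was not counted for the genes not tested.

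Both models are forms of cholestasis, in which bile components are held back in the liver. Ligation of the common bile duct stops outflow at once, and bile pressure, bile acid retention, infarcts and proliferation of ductular cells follow. Abcb4 is the canalicular floppase that moves phosphatidylcholine into bile. Without it, bile acids are not shielded by phospholipid, bile ducts are injured slowly and a sclerosing cholangitis with fibrosis around the ducts develops. The labels give neither strain nor sex, do not say how the Abcb4 allele was made, and give no age for the ligated mice. Between the HDCA groups, the model, the length of HDCA treatment, surgery and any difference in age or strain therefore cannot be told apart.

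The targeted gene was read first. Abcb4 (chr5:8893717-8959231, GRCm38) measured 165, 154 and 129 FPKM in the HDCA-treated knockout libraries and 160, 72.1 and 178 FPKM in the HDCA-treated ligation libraries. The groups overlapped, with a log2 difference of 0.22 ± 0.41 (SE) and an adjusted p of 0.75 (limma). A value summed over the whole gene therefore does not check the knockout label. The tissue label was met in all 6 libraries. Alb, the plasma albumin of hepatocytes, read 18006, 25177 and 33322 FPKM in the knockout libraries and 40084, 35945 and 31062 FPKM in the ligation libraries. Reads recovered from the FPKM values numbered from 34260782 to 40427855 per library over the series, with knockout replicate 1 lowest of the 6 HDCA libraries. Replicate 2 of HDCA-treated ligation stood apart, with a median log2(FPKM + 1) of 2.56 over tested genes against 2.85 to 2.98 in the other 5 libraries. The labels do not tie replicates to separate mice. The p-values then cover only library-to-library spread, and how much of it lies between mice is not given.

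The libraries also differed in Y-linked transcripts. The summed level of Ddx3y, Uty, Kdm5d and Eif2s3y was 16.5 to 19.6 FPKM in HDCA-treated ligation and 0.00457 to 0.0160 FPKM in HDCA-treated knockout. Without HDCA, it was 16.1 to 19.6 FPKM in ligation, 20.2 FPKM in knockout replicate 1, and 0 in knockout replicates 2 and 3. Sex and model therefore cannot be told apart between the HDCA groups. Knockout replicate 1 without HDCA is the single library of its model with Y-linked reads. Its place relative to all 6 ligation libraries is given below as a measurement. The called genes were chosen with the treated ligation libraries among those 6, so that choice partly sets these counts. Over all tested genes, this replicate lay above all 6 for 42% and below all 6 for 4.8%. Among called genes, it lay above all 6 for 92.2% of the higher and below all 6 for 83.2% of the lower. It lay beyond them, on the side of the treated knockout, for 13 of 14 called acute phase genes, 8 of 9 cholesterol genes, 16 of 16 matrix genes and 11 of 11 stellate genes. The same held for 10 of 10 called cholangiocyte genes, 8 of 8 chemokines and cytokines, 3 of 3 neutrophil markers, 3 of 3 immediate early genes, 4 of 6 T and NK cell markers, 5 of 5 recruited macrophage markers and 2 of 3 female-biased genes. Of the 6 higher and 1 lower growth hormone and IGF genes called, it held for 4. For the 1 called canalicular gene it did not hold.

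In the comparison of the HDCA groups, 795 genes were higher in the knockout, 7.36% of those tested, and 101 were lower, 0.935%. A gene counts as called at an adjusted p below 0.05 in limma, after Benjamini-Hochberg adjustment over all tested genes. Values were fitted as log2(FPKM + 1), a scale that understates the change of genes near 1 FPKM. The difference passed 2-fold on that scale for 195 of the higher and 54 of the lower genes. Before adjustment, 2734 genes were higher and 326 lower at p below 0.05. The median difference over all tested genes was itself 0.20, and 77% of genes were higher in the knockout.

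That balance depended on how the libraries were scaled. With median-of-ratios scaling the median of all tested genes was −0.03, and 333 genes were called higher and 372 lower, so that 47.2% of calls were higher in place of 88.7%. Quantile normalization put 52.9% of the calls on the higher side, with 380 higher and 339 lower. Genes called both as deposited and with median-of-ratios scaling numbered 333 higher, 3.08% of those tested, and 91 lower, 0.842%. The number of calls also moved with single libraries. It fell to 144 higher without HDCA-treated knockout replicate 2, and to 190 without HDCA-treated ligation replicate 2. It was 216 without knockout replicate 1, 211 without knockout replicate 3 and 336 and 417 without ligation replicates 1 and 3, all treated. Without untreated knockout replicate 3 or untreated ligation replicate 2 it was 436 or 504. Called lower were 22 genes without treated knockout replicate 1, 23 without replicate 2 or replicate 3, 43 without treated ligation replicate 3 and 64 without its replicate 1. Leaving out untreated ligation replicate 1 gave 1375 higher and 175 lower. In all 12 fits that left out 1 library, 107 genes remained called higher and 16 lower. The groups did not overlap, with the knockout libraries higher, for 32.4% of all tested genes, and with them lower for 4.55%.

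**Figure D1:**
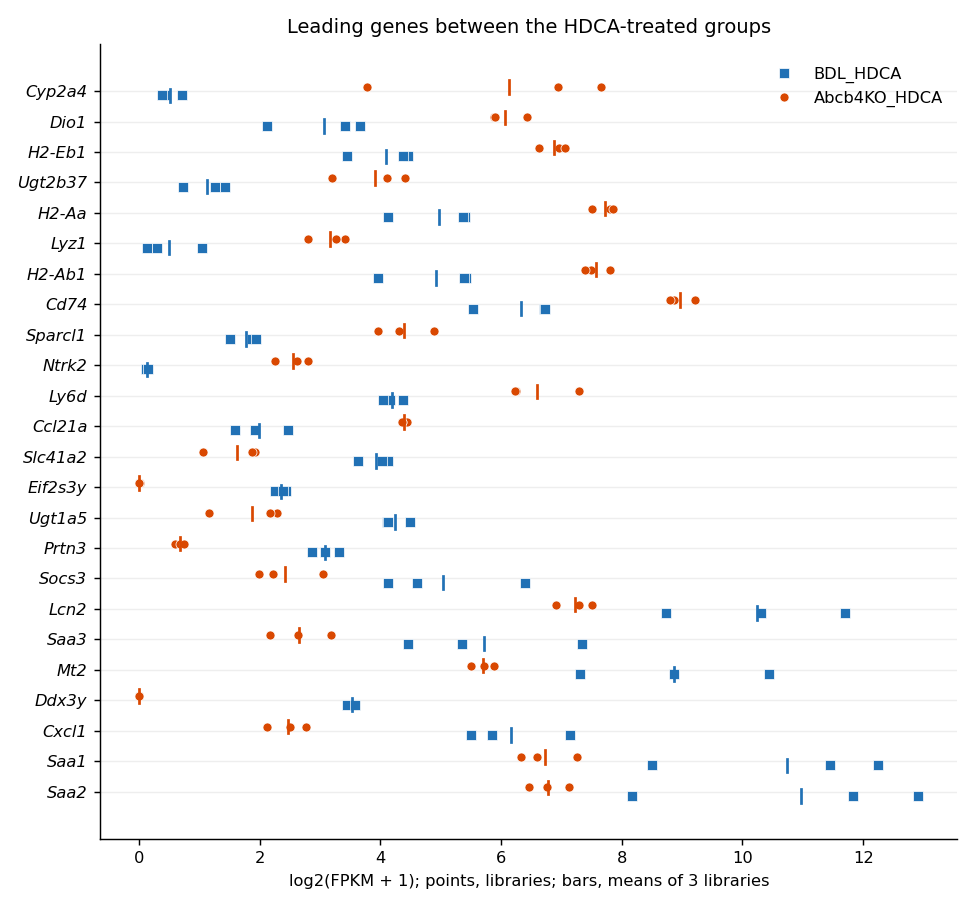
log2(FPKM + 1) of the 12 called genes with the largest and the 12 with the smallest difference, each at a mean of at least 2 FPKM in the higher group and without overlap, in the 6 HDCA libraries (squares, ligation; circles, knockout; vertical bars, means of 3 libraries). The 3 knockout points lie on one side of the 3 ligation points for every gene drawn, which the choice of genes required.

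Dio1, the deiodinase that activates thyroid hormone in liver, was among the largest differences. It measured 57.7, 85.2 and 58.6 FPKM in the treated knockout libraries and 11.7, 3.35 and 9.64 FPKM in the treated ligation libraries. The log2 difference was 3.00 ± 0.42 (SE, adjusted p = 0.00456), and the gene stayed called in every fit that left out 1 library. Ntrk2, the receptor of brain-derived neurotrophic factor, lies at chr13:58806569-59133970 and was below 1 FPKM in every treated ligation library. It read 5.13, 5.94 and 3.79 FPKM in the knockout and 0.0802, 0.0815 and 0.111 FPKM in ligation (log2 difference 2.43 ± 0.17, adjusted p = 5.6e-05). Sparcl1, a secreted relative of the matrix protein osteonectin, read 14.5, 28.7 and 18.9 FPKM against 1.84, 2.67 and 2.83 FPKM (2.62 ± 0.30, adjusted p = 0.00277). The lowest knockout library was well above the highest ligation library for all 3 genes.

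On the lower side, Ugt1a5, a glucuronosyltransferase, measured 1.25, 3.87 and 3.49 FPKM in the knockout against 21.4, 16.4 and 16.6 FPKM in ligation (−2.37 ± 0.29, adjusted p = 0.00285). It shares exons with the other genes of the Ugt1a locus, so its reads may be split among them. Slc41a2, a magnesium transporter, read 2.79, 2.67 and 1.09 FPKM against 11.4, 16.4 and 15.3 FPKM (−2.30 ± 0.37, adjusted p = 0.00834). Both were called in all 12 fits that left out 1 library. The other leading lower genes were the Y-linked Ddx3y and Eif2s3y, and Saa1, Saa2, Saa3, Lcn2, Cxcl1, Socs3, Mt2 and Prtn3, which are described below.

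**Figure D2:**
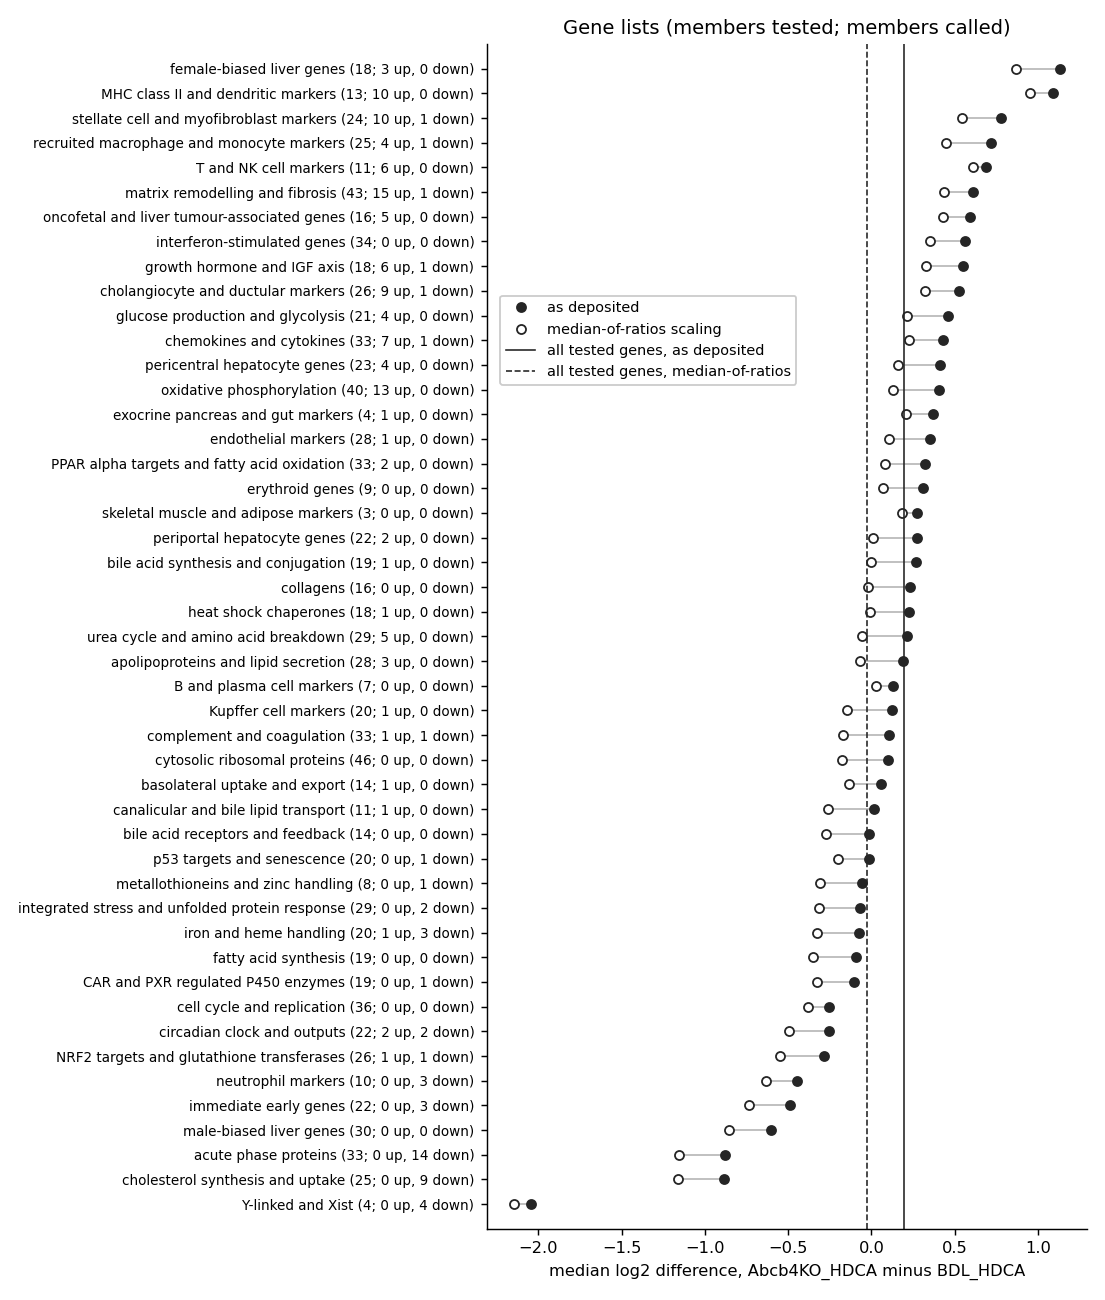
Median log2 difference (Abcb4KO_HDCA minus BDL_HDCA) of the tested members of each gene list, as deposited (filled) and with median-of-ratios scaling (open), with the medians of all tested genes at 0.20 and −0.03 as vertical lines. As deposited, the female-biased list lies furthest right at 1.13 and the Y-linked list furthest left at −2.05. The MHC class II list lies far to the right at 1.09 and the acute phase and cholesterol lists far to the left at −0.88 and −0.89. Each of these lists stays on its side with median-of-ratios scaling.

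The sequences just before the start sites of 4 genes are shown, chosen among called antigen presentation and inflammatory genes because their windows hold the letters searched. MHC class II promoters are known for a Y box bound by NF-Y, within the module read by CIITA. Acute phase and chemokine promoters are known for NF-kB elements. The windows are the 250 bases before each start in RefSeq (GRCm38.p6), read 5′ to 3′ on the gene's strand, with the matched letters in capitals. They lie at chr17:34287824-34288073 on the minus strand for H2-Aa and chr17:34305617-34305866 on the plus strand for H2-Eb1. Those of Cxcl1 and Saa3 lie at chr5:90890995-90891244 on the plus strand and chr7:46715677-46715926 on the minus strand.
H2-Aa: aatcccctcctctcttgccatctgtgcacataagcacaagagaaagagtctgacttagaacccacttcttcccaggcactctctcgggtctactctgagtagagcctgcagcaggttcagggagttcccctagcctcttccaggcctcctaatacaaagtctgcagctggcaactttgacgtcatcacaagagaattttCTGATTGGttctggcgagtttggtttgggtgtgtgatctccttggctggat
H2-Eb1: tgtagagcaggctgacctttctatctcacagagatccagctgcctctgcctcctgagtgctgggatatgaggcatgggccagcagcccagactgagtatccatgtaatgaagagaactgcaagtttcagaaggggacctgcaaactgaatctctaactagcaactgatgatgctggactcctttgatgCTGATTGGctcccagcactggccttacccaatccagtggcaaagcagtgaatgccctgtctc
Cxcl1: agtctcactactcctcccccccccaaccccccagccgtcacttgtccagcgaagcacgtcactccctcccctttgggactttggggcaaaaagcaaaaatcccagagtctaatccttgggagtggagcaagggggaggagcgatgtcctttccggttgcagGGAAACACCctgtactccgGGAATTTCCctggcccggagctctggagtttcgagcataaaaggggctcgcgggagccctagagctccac
Saa3: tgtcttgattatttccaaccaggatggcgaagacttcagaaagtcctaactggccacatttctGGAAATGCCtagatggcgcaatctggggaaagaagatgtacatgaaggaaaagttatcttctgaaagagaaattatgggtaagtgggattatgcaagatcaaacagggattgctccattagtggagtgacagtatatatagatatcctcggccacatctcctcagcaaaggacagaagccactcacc

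The letters searched were CTGATTGG for the Y box and GGNNTTTCC for the NF-kB core, on both strands. The Y box stood 51 bases before the start of H2-Aa and 62 before that of H2-Eb1. Cxcl1 held the NF-kB letters 2 times, 89 and 70 bases before its start, and Saa3 held them 1 time, 187 bases before. The windows of Saa1, Saa2 and Lcn2, searched in the same way, held 0 matches. Among 8705 tested genes with a promoter entry, 6.03% held the Y box letters and 5.87% the NF-kB letters. In the MHC class II list, 3 of 8 members with an entry held the Y box letters (37.5%), namely H2-Aa, H2-Eb1 and H2-Oa. In the acute phase list, 5 of 25 held the NF-kB letters (20%), namely Saa3, Serpina3n, Cp, Steap4 and Il1rn. A match of letters is a description of the window only.

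MHC class II molecules show peptides to CD4 T cells on dendritic cells, macrophages and B cells, and most of their tested genes were higher in the treated knockout. Of 21 listed MHC class II and dendritic genes, 13 were tested, 10 were called higher and none was lower. Over all tested genes 7.36% were called higher and 0.935% lower, and these shares stand beside the counts of all lists below. With median-of-ratios scaling 8 of the 10 were also called. The median difference of the 13 was 1.09, against 0.20 over all tested genes. Their summed level was 925 to 1221 FPKM in the knockout libraries and 93.2 to 225 FPKM in the ligation libraries. In bulk tissue, fewer cells of a type and less RNA per cell cannot be told apart, here or for any cell type below.

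H2-Aa, the alpha chain of I-A, read 224, 230.4 and 180.4 FPKM in the treated knockout and 41.4, 16.5 and 40.1 FPKM in treated ligation (2.76 ± 0.47, adjusted p = 0.0109). H2-Eb1, the beta chain of I-E, read 124, 132 and 97.6 FPKM against 20.9, 9.89 and 19.7 FPKM (2.79 ± 0.45, adjusted p = 0.0085). Cd74, the invariant chain that escorts class II molecules, read 465, 592 and 446 FPKM against 103, 45.2 and 105 FPKM (2.64 ± 0.45, adjusted p = 0.01). For each of these 3 genes, chosen without overlap, the groups were far apart and ligation replicate 2 was lowest. The call held in every fit that left out 1 library. H2-Ab1, the beta chain of I-A, differed by 2.65 ± 0.49 (adjusted p = 0.0139), and by an adjusted p of 0.0576 without treated knockout replicate 2. H2-DMb1, a chain of the peptide exchanger H2-DM, differed by 1.78 ± 0.32 (adjusted p = 0.0132), and was not called without treated knockout replicate 1 (0.0503) or replicate 2 (0.0529). Ciita, the coactivator of the class II genes, was low in both groups, at 0.907, 1.16 and 0.915 FPKM against 0.292, 0.108 and 0.455 FPKM (0.64 ± 0.17, adjusted p = 0.0448). It was called in 3 of the 12 fits that left out 1 library and not with median-of-ratios scaling (0.0535). H2-DMa, H2-DMb2, Cd83 and Cd209a were the other called members. The count of 10 was 4, 3 and 5 without treated knockout replicates 1, 2 and 3 in that order, and 5 without treated ligation replicate 2. In untreated knockout replicate 1, the library with Y-linked reads, all 10 lay above all 6 ligation libraries. The same held for 92.2% of all genes called higher and 42% of all tested genes. The 10 were chosen with the treated ligation libraries among those 6. H2 genes are close relatives, so reads may be divided among them.

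Markers of other leukocytes differed in both directions. Among T and NK cell markers, 11 of 30 were tested and none was lower in the treated knockout. Called higher were 6 of these markers (Cd3g, Lck, Thy1, Gzmb, Ccl5 and Cxcr6), against 7.36% of all tested genes. Their summed level was 27.6 to 31.7 FPKM against 5.52 to 12.8 FPKM. The chemokine Ccl5, which draws T cells, read 8.33, 9.76 and 7.48 FPKM against 3.53, 1.84 and 2.88 FPKM (1.36 ± 0.30, adjusted p = 0.0245). Its adjusted p was 0.0712, 0.0839 and 0.0564 without treated knockout replicates 1, 2 and 3, and 0.0797 without treated ligation replicate 2. The count of 6 was 0 without treated knockout replicate 2 or 3 or treated ligation replicate 2. It was 1 without treated knockout replicate 1, 2 without untreated knockout replicate 3 and 3 without treated ligation replicate 1. Of 7 tested B and plasma cell markers, none was called.

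Of 25 tested recruited macrophage and monocyte markers, 4 were called higher (Itgax, Lyz1, Ms4a7 and Mmp12) and 1 lower (Chil3). Over all tested genes these shares were 7.36% and 0.935%. Lyz1, a lysozyme of macrophages and Paneth cells with a near-identical copy in Lyz2, read 9.68, 8.59 and 5.93 FPKM in the knockout and 0.224, 0.0990 and 1.05 FPKM in ligation (2.67 ± 0.37, adjusted p = 0.00456). Its call held in every fit that left out 1 library. Itgax, the integrin CD11c of dendritic cells and macrophages, differed by 1.68 ± 0.31 (adjusted p = 0.0142), with 0.0601 without treated knockout replicate 2. Chil3, a chitinase-like protein of activated macrophages, read 0.928, 0.852 and 0.346 FPKM against 4.60, 1.87 and 10.0 FPKM (−1.73 ± 0.40, adjusted p = 0.0284). It lost its call without any 1 of the treated knockout libraries (0.0717, 0.0791 and 0.0833) and without treated ligation replicate 1 (0.0614) or 3 (0.0549). The count of 4 higher was 1 without treated knockout replicate 2, 2 without its replicate 1 or treated ligation replicate 2, and 7 without untreated ligation replicate 1. Of 20 Kupffer cell markers 1, C1qa, was called. It lost its call without any 1 of the 6 HDCA libraries (0.0505 to 0.12) or untreated knockout replicate 3 (0.0574), and the list had 3 calls without untreated ligation replicate 1. Clec4f, the defining lectin of Kupffer cells, was 45.5, 43.0 and 52.5 FPKM against 46.5, 23.6 and 38.2 FPKM (adjusted p = 0.394).

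Neutrophil markers mostly went the other way. Of 23 listed, only 10 were tested, with 8 lower in sign and 2 higher. Called lower were 3, against 0.935% of all tested genes, and none was called higher. Prtn3, proteinase 3 of neutrophil granules, read 0.510, 0.606 and 0.678 FPKM in the knockout and 6.30, 7.42 and 8.92 FPKM in ligation (−2.41 ± 0.16, adjusted p = 5.6e-05). The groups were far apart for this gene, chosen without overlap, and the call held in every fit that left out 1 library. Retnlg, a resistin-like protein of neutrophils, read 1.39, 0.969 and 0.917 FPKM against 3.30, 8.37 and 7.76 FPKM (−1.76 ± 0.32, adjusted p = 0.0132), with 0.0532 without treated knockout replicate 2. Lcn2, which hepatocytes also make in inflammation, is the third and is given with the acute phase genes.

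Chemokines and cytokines were mostly called in 1 direction. Of 33 tested, 7 were called higher in the treated knockout (Ccl5, Ccl8, Ccl17, Ccl21a, Ccl22, Cxcl12 and Cx3cl1) and 1 lower (Cxcl1). Over all tested genes 7.36% were called higher and 0.935% lower. Ccl21a, the lymphoid chemokine that guides T cells and dendritic cells and has near-identical copies, read 20.7, 19.6 and 19.6 FPKM against 2.02, 2.80 and 4.52 FPKM (2.39 ± 0.28, adjusted p = 0.00285). Ccl22, a ligand of CCR4 made by dendritic cells, read 3.38, 3.58 and 1.86 FPKM against 0.171, 0.0830 and 0.177 FPKM (1.75 ± 0.16, adjusted p = 0.00063). Ccl8, a monocyte attractant, read 6.96, 4.92 and 2.73 FPKM against 0.302, 0.294 and 0.435 FPKM (2.06 ± 0.29, adjusted p = 0.00546). The knockout libraries were above the ligation libraries for each of the 3. Cxcl1, the neutrophil attractant whose promoter is printed above, read 5.80, 4.65 and 3.34 FPKM in the knockout and 44.2, 141 and 56.6 FPKM in ligation (−3.70 ± 0.40, adjusted p = 0.00239). These 4 calls held in every fit that left out 1 library, and the count of 7 was 3 without treated knockout replicate 2 and 4 without its replicate 1 or treated ligation replicate 2. Of 34 tested interferon-stimulated genes 33 were higher in sign and none was called, with a median of 0.57. That median was 0.22 without treated ligation replicate 2, and 0.35 with median-of-ratios scaling, where 26 were higher in sign.

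Acute phase proteins are made by hepatocytes under IL-6 and IL-1 and secreted into plasma. Of 33 tested, 14 were called lower in the treated knockout, against 0.935% of all tested genes, and none was called higher. In sign 28 were lower and 5 higher, with a median difference of −0.88. With median-of-ratios scaling 10 of the 14 were also called, among 11 called lower. The called members were Saa1 to Saa4, Orm1, Orm2, Hp, Hpx, Apcs, Lcn2, Itih3, Steap4, Fgl1 and Lrg1. Their level in treated ligation varied widely between replicates, with replicate 1 lowest of the 3 for all 14. The count of 14 was 1 without treated knockout replicate 3 and 2 without its replicate 1 or 2. It was 4 without treated ligation replicate 2 and 5 without replicate 3. Without untreated knockout replicate 2 or 3, which enter the shared spread, it was 9 or 7.

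Saa1, serum amyloid A, read 152, 95.1 and 79.8 FPKM in the treated knockout and 363, 4833 and 2809 FPKM in treated ligation (−4.01 ± 0.74, adjusted p = 0.0139). Saa2, its near-identical neighbour with which reads may be shared, read 139, 107 and 86.8 FPKM against 288, 7733 and 3633 FPKM (−4.19 ± 0.92, adjusted p = 0.0253). Lcn2, lipocalin 2, which withholds iron from bacteria, read 119, 180.3 and 156 FPKM against 427, 3313 and 1266 FPKM (−3.02 ± 0.57, adjusted p = 0.0154). The groups did not overlap for any of the 3, which the choice of leading genes required. Within treated ligation, replicate 1 was far below replicates 2 and 3 for each. Saa1 was not called without treated knockout replicate 2 (0.055) or 3 (0.0517), and Lcn2 was not without treated knockout replicate 1 (0.0572). Saa2 lost its call without any 1 of the treated knockout libraries or treated ligation replicate 2 or 3, at adjusted p from 0.0649 to 0.0791. Saa3, the form made outside hepatocytes, read 8.07, 3.48 and 5.20 FPKM against 20.9, 39.8 and 161 FPKM (−3.06 ± 0.63, adjusted p = 0.0209), with 0.0769 without treated knockout replicate 2 and 0.0602 without replicate 3.

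Immediate early genes are transcribed within minutes of a stimulus. Of 22 tested, 3 were called lower and none higher, 17 were lower in sign, and all 3 were called in every fit that left out 1 library. Over all tested genes 0.935% were called lower. The count of 3 was 6 without treated ligation replicate 2, and 8 were called lower with median-of-ratios scaling. Junb, a subunit of AP-1, read 13.2, 20.9 and 15.3 FPKM in the knockout and 48.6, 88.4 and 53.2 FPKM in ligation (−1.86 ± 0.23, adjusted p = 0.00285). Zfp36, which destabilises inflammatory messages, read 22.3, 28.5 and 39.3 FPKM against 73.2, 97.3 and 71.7 FPKM (−1.42 ± 0.21, adjusted p = 0.00663). Btg2, an antiproliferative gene, was the third. Socs3, the feedback inhibitor of STAT3 signalling, read 3.68, 7.23 and 2.95 FPKM against 16.5, 82.8 and 23.2 FPKM (−2.62 ± 0.48, adjusted p = 0.0136). Its adjusted p was 0.0519 without treated knockout replicate 1 and 0.0517 without replicate 3.

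Mt2, a zinc-binding metallothionein, read 57.7, 51.7 and 44.1 FPKM against 158, 1388 and 466 FPKM (−3.18 ± 0.74, adjusted p = 0.0293), and lost its call without any 1 of the treated knockout libraries or treated ligation replicate 2 or 3 (0.0633 to 0.0861). Its neighbour Mt1 was 50.4, 51.0 and 60.1 FPKM against 123, 1181 and 285 FPKM and was not called (adjusted p = 0.0609). Hmox1, heme oxygenase 1, read 25.6, 27.8 and 22.8 FPKM against 74.6, 100.1 and 135 FPKM (−1.95 ± 0.45, adjusted p = 0.0286), and lost its call without the same 5 libraries (0.0715 to 0.084). For Mt1, Mt2, Socs3 and Junb, treated ligation replicate 2 was the highest of the 6 libraries.

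**Figure D3:**
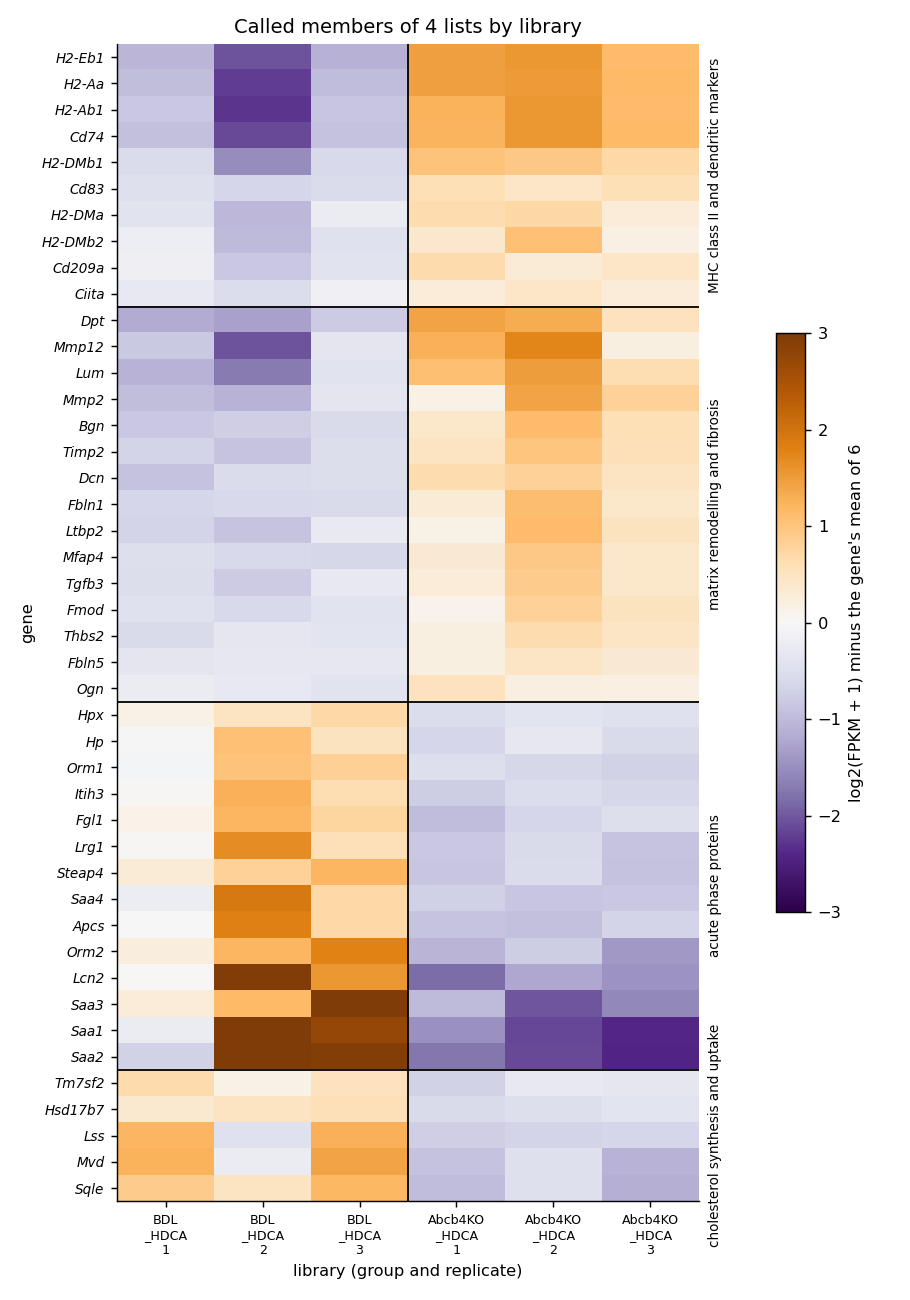
log2(FPKM + 1) minus the gene's mean over the 6 HDCA libraries for called members of 4 lists (rows) in each library (columns), with the colour scale ending at −3 and 3. The MHC class II and matrix rows are above their mean in the 3 knockout libraries, and the acute phase and cholesterol rows are above it in most ligation libraries, with BDL_HDCA replicate 2 highest for most acute phase genes and closer to the mean for Tm7sf2, Lss and Mvd.

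Cholesterol synthesis is driven by SREBP2, which is activated when membrane sterol falls and raises the enzymes of the pathway together. All 25 listed genes were tested and all 25 were lower in sign in the treated knockout. Called lower were 9, against 0.935% of all tested genes, and none was higher. With median-of-ratios scaling the same 9 were among 17 called lower, where 372 of all tested genes were called lower. The median difference was −0.89, and −1.34 without treated ligation replicate 2. Leaving out that library raised the count of called genes to 19. It was 2, 4 and 3 without treated knockout replicates 1, 2 and 3, and 3 without treated ligation replicate 1 or 3. Sqle, Lss, Mvd, Hsd17b7 and Tm7sf2 were among the called genes. The sterol element core CACCCCAC was found in the 250-base windows of 2 of 17 listed genes (11.8%), Hmgcs1 and Acat2, and in 3.35% of the tested genes with an entry.

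Sqle, squalene epoxidase, read 15.8, 23.2 and 14.0 FPKM against 61.0, 45.3 and 74.9 FPKM (−1.72 ± 0.22, adjusted p = 0.00329). Hsd17b7, a late enzyme of the pathway, read 6.80, 7.38 and 7.96 FPKM against 14.1, 15.3 and 16.2 FPKM (−0.95 ± 0.17, adjusted p = 0.0122). Sqle and Hsd17b7 were called in every fit that left out 1 library, and treated ligation replicate 2 was above the knockout libraries for both. Hmgcs1, an early enzyme of the pathway, was 61.1, 85.3 and 53.1 FPKM against 259.8, 57.7 and 275 FPKM and was not called (adjusted p = 0.121). There, ligation replicate 2 lay within the knockout range. Of 19 tested fatty acid synthesis genes, none was called as deposited and 3 were called lower with median-of-ratios scaling.

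Matrix remodelling genes and collagens were listed apart. Of 43 tested matrix remodelling and fibrosis genes, 15 were called higher in the treated knockout and 1 lower, with a median of 0.61. Over all tested genes 7.36% were called higher and 0.935% lower. With median-of-ratios scaling, 11 of the 15 and the 1 lower gene were also called. None of 16 tested collagen genes was called, and their median was 0.23, with a range from 0.02 without treated knockout replicate 2 to 0.53 without treated ligation replicate 3. The difference between the lists was not tested. The higher genes were mainly small proteoglycans and fibre-associated proteins (Dcn, Bgn, Lum, Fmod, Ogn, Dpt, Fbln1, Fbln5, Mfap4, Ltbp2 and Thbs2), with Timp2, Mmp2, Mmp12 and Tgfb3. The count of 15 was 8, 2 and 6 without treated knockout replicates 1, 2 and 3, and 7, 4 and 9 without treated ligation replicates 1, 2 and 3. The count of 1 lower was 0 in 9 of the 12 fits that left out 1 library.

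Dpt, dermatopontin, read 38.2, 35.7 and 20.2 FPKM in the knockout and 5.41, 4.94 and 7.53 FPKM in ligation (2.19 ± 0.32, adjusted p = 0.0061). Fbln1, fibulin 1, read 3.29, 6.55 and 3.67 FPKM against 1.25, 1.30 and 1.33 FPKM (1.22 ± 0.22, adjusted p = 0.013). Both were called in every fit that left out 1 library. Col1a1, the main fibrillar collagen, was 8.52, 23.1 and 15.3 FPKM against 17.3, 10.7 and 33.4 FPKM (adjusted p = 0.64), and the groups overlapped. Acta2, smooth muscle actin of myofibroblasts, was 4.11, 3.52 and 3.43 FPKM against 7.39, 3.49 and 13.6 FPKM (adjusted p = 0.259).

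Of 24 tested stellate cell and myofibroblast markers, 10 were called higher and 1 lower, against 7.36% and 0.935% of all tested genes. The list's median was 0.78, and 6 of the 10 were also called with median-of-ratios scaling. Rgs5, a regulator of G protein signalling in pericytes, read 32.1, 36.2 and 28.6 FPKM against 8.10, 6.30 and 9.31 FPKM (1.91 ± 0.30, adjusted p = 0.00786). Colec11, a collectin made by stellate cells, read 19.8, 20.7 and 21.7 FPKM against 7.19, 7.48 and 6.90 FPKM (1.41 ± 0.23, adjusted p = 0.00936). Both were called in every fit that left out 1 library. The other higher members were Colec10, Des, Pdgfra, Pdgfrb, Lrat, Cygb, Thy1 and Hand2, and Msln, the mesothelial marker mesothelin, was the lower one. Msln was called in 4 of the 12 fits, those without untreated knockout replicate 3, untreated ligation replicate 1 or 2, or treated ligation replicate 2. The count of 10 was 3 without treated knockout replicate 1 or 2, 4 without its replicate 3 or treated ligation replicate 1 or 2, and 6 without treated ligation replicate 3 or untreated knockout replicate 3. Of 28 endothelial markers 1, Cd34, was called. It lost its call without any 1 of the 6 HDCA libraries (0.0576 to 0.113) or untreated knockout replicate 3 (0.0551), and the list had 5 calls without untreated ligation replicate 1.

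Of 26 tested cholangiocyte and ductular markers, 9 were called higher and 1 lower, against 7.36% and 0.935% of all tested genes. The list's median was 0.53, and 8 of the 9 were also called with median-of-ratios scaling. Tspan8, a tetraspanin of ductular epithelium, read 13.4, 13.6 and 10.5 FPKM in the knockout and 3.09, 2.41 and 3.99 FPKM in ligation (1.71 ± 0.27, adjusted p = 0.00786), and held in every fit that left out 1 library. Cd24a, Epcam, Krt7, Prom1, Cldn4, Bicc1, Ehf and St14 were the other higher members, and Ambp, also a hepatocyte plasma protein, was the lower one. Ambp lost its call without any 1 of the treated knockout libraries or treated ligation replicate 2 or 3. The defining keratin Krt19 was 8.24, 14.7 and 12.3 FPKM against 5.40, 5.17 and 8.93 FPKM and was not called (0.76 ± 0.28, adjusted p = 0.102). Spp1, osteopontin, was 234, 326 and 244 FPKM against 245, 109.6 and 332 FPKM (adjusted p = 0.649). The count of 9 was 4, 1 and 5 without treated knockout replicates 1, 2 and 3, and 4 and 2 without treated ligation replicates 1 and 2. Ly6d, a lipid-anchored surface protein listed among oncofetal genes, read 75.1, 155 and 74.0 FPKM against 16.9, 15.5 and 19.8 FPKM (2.40 ± 0.51, adjusted p = 0.0229), and lost its call without any 1 of the treated knockout libraries or treated ligation replicate 1 or 2 (0.0517 to 0.0829).

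Few genes of bile acid synthesis, sensing and transport were called. Of 19 tested synthesis and conjugation genes 1 was higher, of 14 receptor and feedback genes none was called, of 11 canalicular and bile lipid transporters 1 was higher and of 14 basolateral transporters 1 was higher. The 3 called genes were Hsd3b7, Slc47a1 and Abcc6, and none of the 3 was called with median-of-ratios scaling. With that scaling 1 receptor and feedback gene and 1 basolateral transporter were called lower. The 3 shares are near or below the 7.36% over all genes. Cyp7a1, which starts the classical route from cholesterol to bile acids, was 31.1, 30.6 and 21.2 FPKM in the knockout and 35.9, 23.8 and 26.2 FPKM in ligation (−0.05 ± 0.57, adjusted p = 0.963). Abcb11, the bile salt export pump, was 128, 121 and 103 FPKM against 202, 57.2 and 203 FPKM (adjusted p = 0.794). Nr0b2, the feedback repressor SHP, was 12.4, 9.77 and 8.96 FPKM against 33.9, 7.92 and 34.1 FPKM (adjusted p = 0.173). In the last 2 genes treated ligation replicate 2 lay far below the other ligation libraries, and the groups overlapped. Slc51b, a subunit of the basolateral bile acid exporter, was 6.03, 4.88 and 2.75 FPKM against 16.2, 6.62 and 23.3 FPKM. It was not called as deposited (−1.45 ± 0.48, adjusted p = 0.0791) and was called with median-of-ratios scaling (adjusted p = 0.0298).

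Among xenobiotic enzymes, Cyp2a5, coumarin hydroxylase, was the 1 gene of 19 tested CAR and PXR targets that was called. It read 138, 193 and 127 FPKM in the knockout and 423, 324 and 616 FPKM in ligation (−1.54 ± 0.24, adjusted p = 0.00786). Its close relative Cyp2a4 went the other way, as given with the sex-biased genes, and reads may be shared between them. Of 26 tested NRF2 targets, Cbr3, a carbonyl reductase, was higher at 2.85, 2.87 and 3.11 FPKM against 0.970, 1.01 and 1.04 FPKM (0.97 ± 0.13, adjusted p = 0.00329), and Hmox1 was lower. Cyp2a5 and Cbr3 were called in every fit that left out 1 library. With median-of-ratios scaling 5 of the NRF2 targets were called lower and 1 higher, and 2 of the CAR and PXR targets were called lower.

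Other hepatocyte pathways held calls that mostly were not made with median-of-ratios scaling. Of 18 tested growth hormone and IGF genes 6 were higher as deposited (Ghr, Igf1, Igfals, Igfbp3, Socs2 and Stat5b), and none with that scaling. Socs3, given above, was the 1 lower gene of that list under both scalings. That count of 6 was 1 to 3 without any 1 of the HDCA libraries, and 2 without untreated knockout replicate 3. Agxt, which detoxifies glyoxylate in peroxisomes, read 205, 156 and 186 FPKM in the knockout and 98.6, 86.3 and 80.5 FPKM in ligation (1.03 ± 0.15, adjusted p = 0.00609). It was the 1 of 5 called genes among 29 urea cycle and amino acid genes that was also called with median-of-ratios scaling, and the count of 5 was 3 without treated knockout replicate 1. Gls2, liver glutaminase, read 162, 136 and 144 FPKM against 63.4, 69.6 and 53.1 FPKM (1.24 ± 0.19, adjusted p = 0.0073), with 0.0627 under that scaling. All 40 oxidative phosphorylation genes were higher in sign, with a median of 0.41, and 13 were called, against 7.36% of all tested genes. Under median-of-ratios scaling none was called, and leaving out any 1 of the 6 HDCA libraries left 0 to 2 called. Of 46 ribosomal protein genes none was called.

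**Figure D4:**
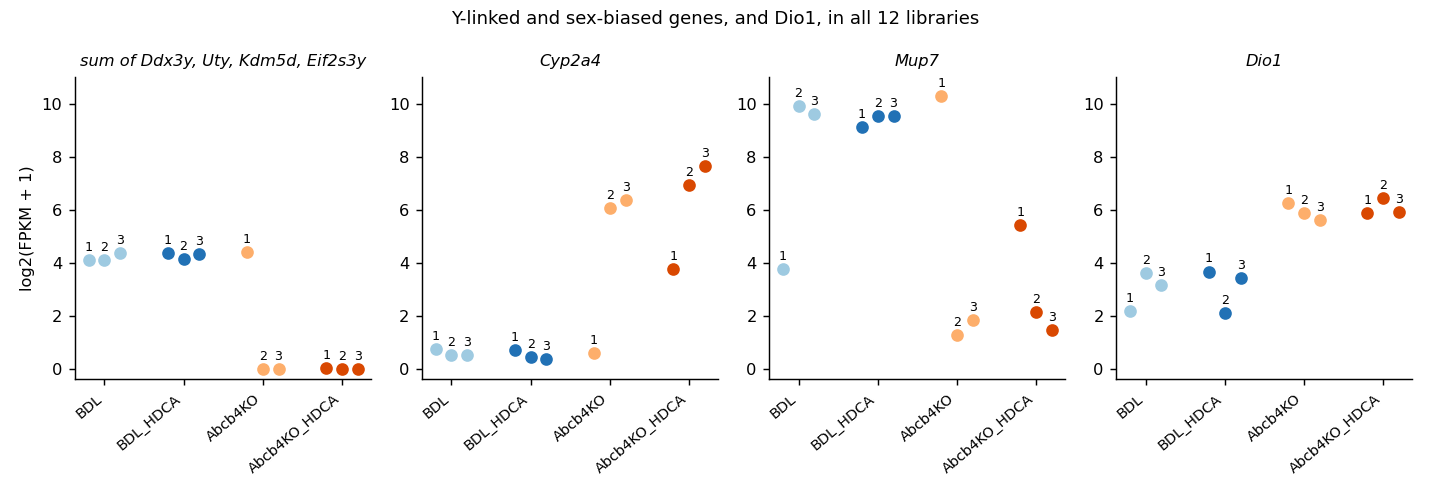
log2(FPKM + 1) of the summed Y-linked genes, Cyp2a4, Mup7 and Dio1 in all 12 libraries, with the replicate number above each point. The Y-linked sum is at or near 0 in all 3 Abcb4KO_HDCA libraries and in Abcb4KO replicates 2 and 3, while Dio1 is higher in all 6 knockout libraries, Abcb4KO replicate 1 included.

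Sex-biased liver genes are given because Y-linked transcripts differed between the HDCA groups. Of 18 tested female-biased genes 3 were called higher in the treated knockout (Cyp2a4, Cd36 and Rtn4), with a median of 1.13. In sign 16 were higher and 2 lower. The groups did not overlap for 9, all higher, against 32.4% of all tested genes. Of 30 male-biased genes none was called, with a median of −0.60. In sign 20 were lower and 10 higher. The knockout libraries lay wholly lower for 10 and wholly higher for 1. Over all tested genes these shares were 4.55% and 32.4%. Without HDCA, where 1 knockout library had Y-linked reads, the medians were −0.19 for the female-biased and −0.04 for the male-biased list. The count of 3 was 0 without treated knockout replicate 2 or 3 or treated ligation replicate 1 or 2, and 1 without treated ligation replicate 3. Cyp2a4, a steroid hydroxylase more active in female liver, read 12.7, 122 and 200.2 FPKM against 0.645, 0.351 and 0.302 FPKM (5.61 ± 1.32, adjusted p = 0.0308). Knockout replicate 1 was far below the other knockout libraries. The call was lost without treated knockout replicate 2 or 3 or any 1 of the treated ligation libraries (0.0624 to 0.0964) and with limma-voom on recovered reads (0.257). Mup7, a major urinary protein more abundant in males and one of many near-identical genes, was 41.7, 3.43 and 1.78 FPKM against 549, 735 and 735 FPKM. It was not called (−6.37 ± 2.22, adjusted p = 0.0932). Without the Y-linked and sex-biased genes, 803 genes were called higher and 98 lower. That fit only drops the listed genes and leaves the values of all others unchanged. It therefore cannot show whether the other calls depend on sex. Of the 795 genes called higher, untreated knockout replicate 1 lay above all 6 ligation libraries for 733 (92.2%), against 42% of all tested genes. Of the 101 called lower, it lay below all 6 for 84 (83.2%), against 4.8% of all tested genes. The called genes were chosen with the treated ligation libraries among these 6, which partly sets both shares.

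The same 2 models were compared without HDCA to ask whether the contrast differed with treatment. There, 1630 genes were higher in the knockout, 15.1% of those tested, and 116 were lower, 1.07%. Of the genes called higher, 597 were called in both comparisons, which is 75.1% of those called with HDCA and 36.6% of those called without. Of the genes called lower, 61 were called in both, 60.4% and 52.6%. No gene was called in opposite directions. The sign was the same without HDCA for 791 of the 795 and 100 of the 101. The comparisons share no library, though they share 1 estimate of spread, and across genes, which are not independent replicates, the log2 differences had a Pearson r of 0.807.

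**Figure D5:**
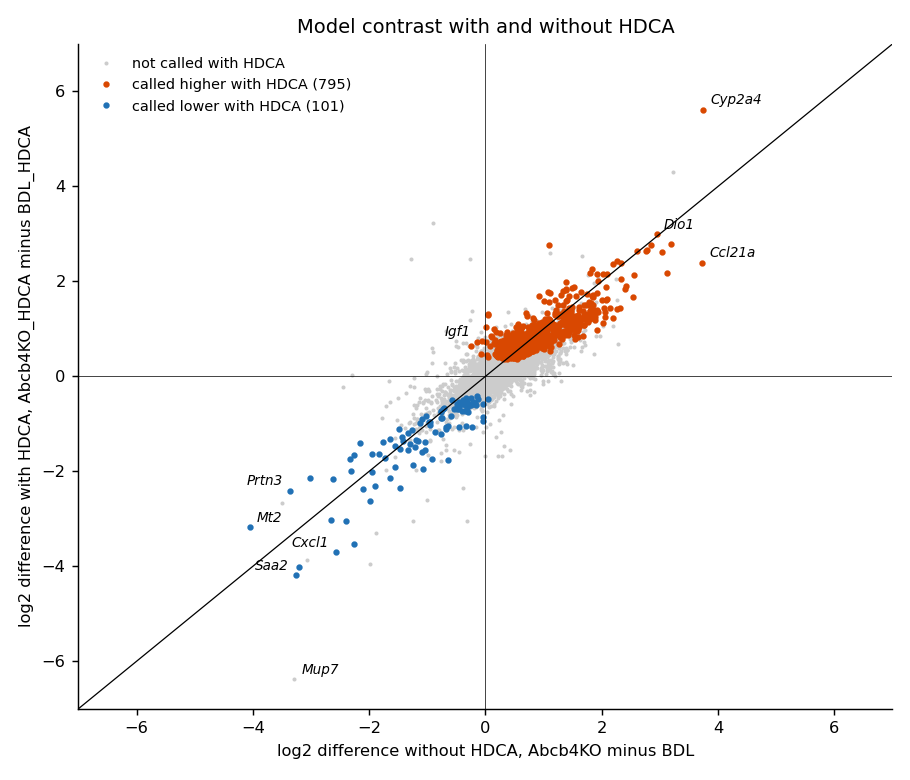
log2 difference between knockout and ligation without HDCA (horizontal) and with HDCA (vertical) for each tested gene, with the line of equality. The 795 genes called higher and 101 called lower with HDCA are coloured, and all but 4 and 1 of them have the same sign on both axes.

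The difference of the 2 contrasts was tested directly. No gene was called (0%), the smallest adjusted p was 1, and 200 genes had an unadjusted p below 0.05 in limma. Limma-voom on recovered reads also called 0, with 225 below 0.05 before adjustment. The smallest unadjusted p belonged to Igf1, the growth factor that liver makes under growth hormone. With HDCA it read 74.7, 74.6 and 79.3 FPKM in the knockout and 48.0, 42.0 and 46.7 FPKM in ligation (0.73 ± 0.13, adjusted p = 0.0116). Without HDCA the log2 difference was −0.14, and the difference of contrasts was 0.87 ± 0.18 (unadjusted p = 0.000489), which did not pass adjustment. With median-of-ratios scaling the treated difference was 0.46 and was not called (adjusted p = 0.168).

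The lists above were also counted without HDCA. The MHC class II list had 10 genes higher, the matrix list 27, the stellate list 16, the cholangiocyte list 13, the collagens 11 and the endothelial list 17. The acute phase list had 16 lower and the cholesterol list 14 lower. A larger or smaller count on one side was not tested as a difference between the comparisons. No gene passed the test of the difference. That test was made gene by gene with 3 libraries a group, and cannot show that the comparisons are alike.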

How the data were processed

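Liver RNA of 12 libraries was analysed from 1 gene table. The authors deposited FPKM values, without replicate pooling. Per the submitters' processing notes reads were handled with DESeq2 1.20.0, featureCounts 1.5.0-p3, HISAT2 2.0.5, fastp and CASAVA 1.8, in no stated order, on GRCm38 (mm10). Strandedness is not given in the sources used here, so antisense and overlapping genes cannot be separated. Groups came from the sample titles, where MDR was taken as the Abcb4 knockout, the one second model the series describes, and H as HDCA.

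Genes at 1 FPKM or more in at least 3 of 12 libraries were fitted with limma 3.58.1 (R 4.3.3, trend) on log2(FPKM + 1), as 4 group means over 12 libraries with 8 residual degrees of freedom. Sharing the fit gives all groups 1 spread. Whole reads were recovered from FPKM steps for 16968 genes (99.99%, tolerance 0.02 reads), and limma-voom on them was an alternative, calling 604 genes higher and 86 lower. Positions are from GENCODE vM21 and promoters from RefSeq. The limma fit was also tested on simulated reads, drawn without a shift of all genes between groups and without an outlying library. That test therefore cannot show how far the calls depend on scaling or on single libraries.

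The comparison and lists were chosen with earlier results of these data known. Named genes are the 12 largest differences each way among called genes without overlap, up to 4 of smallest p per list, a set of key genes, and the 5 of smallest p for the difference of contrasts; other genes are only listed as called members, except Alb, Ciita and Chil3, chosen after their values were seen. Same-numbered replicates did not deviate together (correlations −0.0344, −0.196 and −0.228), so no pairing was used. Some called members of the matrix and cholesterol lists are counted but not reported here by name.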

Additional observations from a re-analysis of the deposited data

How the results depend on the processing

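Genes called higher with HDCA (795) were 2188 with array weights, 367 at a mean of at least 5 FPKM, 333 with median-of-ratios scaling, 464 with only the 6 libraries compared, 380 with quantile normalization and 523 with the replicate block, and 144 to 1375 when 1 library was left out. Genes called lower (101) were 562, 372 and 339 with array weights, median-of-ratios scaling and quantile normalization, 66 with the replicate block, 361 without BDL replicate 1 and BDL_HDCA replicate 2, and 22 to 175 when 1 library was left out. Without HDCA, genes called higher (1630) were 4201 with array weights, 540 at a mean of at least 5 FPKM, 640 with median-of-ratios scaling, 650 with only the 6 libraries and 548 with quantile normalization, and 452 to 2168 when 1 library was left out. Genes called lower (116) were 746, 76, 486 and 393 with array weights, the 5 FPKM minimum, median-of-ratios scaling and quantile normalization, 361 without the 2 libraries named above, and 37 to 178 when 1 library was left out. With the replicate block the untreated counts were 1254 and 97. The block rests on replicate numbers that share only a number. The difference of contrasts called 0 genes under every alternative. The array weights were 0.134 for BDL replicate 1 and 0.171 for BDL_HDCA replicate 2, and their estimation stopped before it converged. The causes were not tested. No called gene among those named changed sign. With median-of-ratios scaling the medians of these lists passed from above to below 0, along with that of all genes: urea cycle and amino acids (0.22 to −0.06), apolipoproteins (0.19 to −0.07), complement and coagulation (0.10 to −0.17), Kupffer cells (0.12 to −0.15), basolateral transport (0.06 to −0.14), canalicular transport (0.01 to −0.26), ribosomal proteins (0.10 to −0.18), collagens (0.23 to −0.02), chaperones (0.23 to −0.0053) and bile acid synthesis (0.27 to −0.0044). Over the named genes, 4276 values kept their side of the threshold, 455 lost it and 185 gained it. Over list medians, 1052 stayed within the spread and 26 moved. Precision is limited by 3 libraries a group and, for Prtn3 (17 to 351 reads) and Lyz1 (5 to 420 reads), by low counts.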

Other observations

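Clock and zonation genes differed in a few members. Of 22 tested circadian genes 2 were called higher in the treated knockout, a share near the 7.36% of all genes, and 2 were called lower. Npas2, a partner of BMAL1, read 2.67, 3.90 and 3.57 FPKM in the knockout and 0.955, 0.635 and 0.116 FPKM in ligation (log2 difference 1.51 ± 0.22 (SE), adjusted p = 0.00616, limma). Per2, which represses the clock's activators, read 0.671, 0.550 and 0.875 FPKM against 2.06, 2.54 and 2.91 FPKM (−1.04 ± 0.16, adjusted p = 0.00663). The groups did not overlap for either gene, and both were called in every fit that left out 1 library. The other 2, Arntl (higher) and Tef (lower), were less stable. Arntl lost its call without any 1 of the Abcb4KO_HDCA libraries or BDL_HDCA replicate 1 or 3 (0.054 to 0.0898), and with median-of-ratios scaling (0.101). Tef was called in 2 of the 12 fits, those without BDL replicate 1 or BDL_HDCA replicate 1, and not with median-of-ratios scaling (0.0535). The count of lower genes was 5 without BDL replicate 1. The labels give no hour of collection. Of 23 pericentral hepatocyte genes 4 were called higher, against 7.36% of all tested genes, and none was called lower. Rhbg, an ammonium transporter, read 11.9, 13.5 and 9.74 FPKM against 5.31, 3.02 and 3.28 FPKM (1.40 ± 0.19, adjusted p = 0.00331). Axin2, a target and inhibitor of Wnt signalling, read 2.69, 3.40 and 2.27 FPKM against 1.08, 0.996 and 0.907 FPKM (0.92 ± 0.14, adjusted p = 0.00738). Nkd1 and Slc13a3 were the others, and the count was 2 without BDL_HDCA replicate 2 or Abcb4KO_HDCA replicate 2 or 3, and 7 without BDL replicate 1.

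Single stress genes were called. Hspb1, a small heat shock protein, was 1 of 18 chaperones, of which 7 were lower in sign and no other was called. It read 67.3, 57.7 and 62.2 FPKM against 19.8, 8.05 and 20.4 FPKM (1.99 ± 0.34, adjusted p = 0.0103). Asns, asparagine synthetase, a target of ATF4, read 0.382, 0.362 and 0.161 FPKM against 5.05, 6.50 and 2.13 FPKM (−2.01 ± 0.37, adjusted p = 0.0141), with 0.0514 and 0.0517 without Abcb4KO_HDCA replicates 2 and 3. With Herpud1 it made 2 genes called lower of 29 tested in the integrated stress and unfolded protein response, against 0.935% of all tested genes. That count was 0 without Abcb4KO_HDCA replicate 2, 1 without its replicate 1 or 3, and 3 without BDL replicate 1 or BDL_HDCA replicate 2. With median-of-ratios scaling 4 of the 29 were called lower. Of 36 cell cycle genes none was called. C4b, complement component 4, was lower at 194, 249 and 226 FPKM against 333, 377 and 350.1 FPKM (−0.67 ± 0.13, adjusted p = 0.015).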
